A study of Mus musculus with 10 samples.

Results

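The members examined are stretches of 3 kb that end 1 base before the annotated start of a protein-coding gene. Their reads were counted on the strand opposite to the gene, whose own RNA was scarce in the whole testis. A coding gene was taken as silent when its mean in the 5 control libraries was under 1 CPM (counts per 1000000 gene counts), and 5658 of the 30166 upstream regions of the series met that rule. Olfactory receptor genes, which encode odour receptors of nasal sensory neurons, made up 1033 of them and were kept apart from the other 4625. Members were chosen by the control level of the downstream gene and not by the antisense counts, so only the antisense counts were tested. Silent here refers to RNA of the whole testis, so a gene used by few of its cells can fall under the limit.

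Active mammalian promoters fire in both directions, and the RNA made away from the gene, called a promoter upstream transcript (PROMPT), is short-lived because the nuclear RNA exosome degrades it from its 3′ end. DIS3 is a catalytic ribonuclease of that exosome, and PROMPTs are among its best known nuclear substrates. PROMPTs are best described at active promoters, and silent genes are the far end of that range. Regions upstream of processed pseudogenes, which are inserted copies of spliced mRNA that mostly lack a promoter, serve here as a comparison set.

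Bulk RNA of whole testes at postnatal day 4 (P4) was compared between 5 *Dis3* cKO mice and 5 controls, all labelled as B6D2F1, with both testes of a mouse in 1 library. The knockout mice carried *Dis3* F/−; *Ddx4-Cre*, that is 1 floxed allele, 1 deleted allele and a Cre driven by the germ cell gene *Ddx4* from fetal life onward, and controls were littermates whose label reads *Dis3* WT. Somatic cells such as Sertoli, Leydig and myoid cells lie outside the reach of this Cre and keep the floxed allele, so a level per testis mixes knockout germ cells with somatic cells that carry a single deleted allele. In such bulk RNA fewer cells of a type and less RNA per cell cannot be told apart.

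Gene counts came to between 28538849 and 41104912 per library, and the silent-gene regions held 9308 to 22942 antisense counts. *Dis3* itself had 4116 to 5161 normalised counts in the controls and 1362 to 1709 in *Dis3* cKO, with a log2 fold change of −1.62 (SE 0.092, edgeR adjusted p = 3.78e-07). Markers of the labelled tissue were present in every library, with 10 germ cell genes summing to 618 to 774 CPM in controls and 409.8 to 549 CPM in *Dis3* cKO and 8 Sertoli genes to 1833 to 2262 and 1715 to 2432 CPM. Of the 10 germ cell genes, 3 were called lower and 0 higher in *Dis3* cKO, where 3.48% of the 20043 genes tested were called lower. Libraries also fell apart by replicate number in both groups, replicates 1 to 3 against replicates 4 and 5. Over the gene counts, pairs of libraries of 1 group differed by a chi-square of 28.9 to 49.6 per degree of freedom between those sets. Within them it was 4.36 to 26.1, highest for *Dis3* cKO replicate 1 against replicates 2 (21.4) and 3 (26.1). Against *Dis3* cKO replicate 4 that library was at 29.1, so replicates 1 to 3 of the knockout are not a tight set. No label names a batch. Within-set values are therefore given beside the results that they touch.

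Promoter sequences show what lies at the start of a region that rose. RefSeq starts on GRCm38.p6 lay within 250 bases of the annotated start for 22 of the 33 regions called higher (described below), which is 66.7% and too few for a comparison of promoter makeup, so that check is void. Sequences are printed for 4 of the 7 called regions with non-overlapping groups and a mean of at least 20 normalised counts (described below), each as the 250 bases before the RefSeq start on the strand of the gene, 5′ to 3′. The antisense RNA reads the other strand and runs leftward from the right-hand end. Capitals mark the TATA motif TATAAA, the GC-box motif GGGCGG and the CCAAT motif on either strand, which do not overlap in these windows. They occur in 12.4%, 32.7% and 33.9% of all 32851 promoters of the table at this length.
Trem6l, chr17:48315912-48316161, plus strand: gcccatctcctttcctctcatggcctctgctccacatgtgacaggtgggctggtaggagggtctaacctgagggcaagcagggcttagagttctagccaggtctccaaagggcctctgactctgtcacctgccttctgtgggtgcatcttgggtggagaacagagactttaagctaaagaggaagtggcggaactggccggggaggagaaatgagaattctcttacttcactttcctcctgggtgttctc
Tac4, chr11:95261279-95261528, plus strand: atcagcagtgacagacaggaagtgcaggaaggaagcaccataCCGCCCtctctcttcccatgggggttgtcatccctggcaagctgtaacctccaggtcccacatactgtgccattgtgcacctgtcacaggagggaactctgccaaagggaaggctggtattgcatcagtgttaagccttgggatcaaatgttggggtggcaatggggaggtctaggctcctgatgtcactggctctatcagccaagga
Cldn7, chr11:69964529-69964778, plus strand: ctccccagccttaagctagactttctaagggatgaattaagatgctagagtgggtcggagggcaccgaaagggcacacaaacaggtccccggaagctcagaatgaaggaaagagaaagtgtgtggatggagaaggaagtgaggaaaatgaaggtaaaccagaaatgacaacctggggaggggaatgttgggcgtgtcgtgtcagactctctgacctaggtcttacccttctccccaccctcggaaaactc
Mapkapk5, chr5:121545893-121546142, minus strand: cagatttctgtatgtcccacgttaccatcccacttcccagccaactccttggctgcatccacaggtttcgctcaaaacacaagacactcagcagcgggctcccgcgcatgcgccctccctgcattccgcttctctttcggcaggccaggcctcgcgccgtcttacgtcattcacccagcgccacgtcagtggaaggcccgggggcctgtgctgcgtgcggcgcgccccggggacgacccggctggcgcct

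The windows differed in CpG content, the dinucleotide that marks most broadly used mammalian promoters. Observed over expected CpG was 0.903 at *Mapkapk5* and 0.377 at *Cldn7*, but 0.109 at *Trem6l* and 0.0544 at *Tac4*, against a median of 0.374 over all promoters of the table (quartiles 0.167 and 0.723). The table starts at *Cldn7* and *Tac4* coincide with the annotated start, and those at *Trem6l* and *Mapkapk5* lie 21 and 13 bases inside the gene. A single motif, GGGCGG on the other strand 208 to 203 bases before the start of *Tac4*, was found in the 4 windows.

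Summed over all members, antisense RNA upstream of silent genes did not separate the genotypes. The 4625 regions without olfactory receptors held 417, 415, 295, 223 and 210.2 counts per 1000000 TMM-scaled gene counts in control replicates 1 to 5 and 659, 302, 270.3, 448 and 438 in *Dis3* cKO replicates 1 to 5. Group means were 312 ± 100.3 and 423 ± 154 (SD, n = 5 each), a ratio of 1.36, and the groups overlapped, with *Dis3* cKO replicates 2 and 3 below control replicates 1 and 2. Relative to the total of all regions in place of the gene counts the ratio turned to 0.81. Olfactory receptor regions summed to 101, 100.4, 67.4, 40.7 and 35.96 in control replicates 1 to 5 and to 156, 48.2, 44.3, 101 and 97.9 in *Dis3* cKO replicates 1 to 5. Their means were 69.0 ± 31.1 and 89.6 ± 45.9, a ratio of 1.30, again with overlap, and relative to the region totals the ratio was 0.779.

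Both sums varied between libraries together with the sum upstream of processed pseudogenes. The 5869 pseudogene regions gave 572, 574, 418, 325 and 305 counts per 1000000 in the controls and 877, 372, 336, 596 and 585 in *Dis3* cKO. *Dis3* cKO replicate 1 was highest and control replicate 5 lowest for all 3 sets. Within replicates 1 to 3 the ratio of *Dis3* cKO to control was 1.09 for silent genes, 0.927 for olfactory receptors and 1.01 for pseudogenes, and within replicates 4 and 5 it was 2.05, 2.60 and 1.87. The part of this library background in the sums was not tested.

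Genes that were expressed gave another picture on the same scale. Per 1000 regions, summed levels in the controls were 66.8 ± 30.2 for olfactory receptors, 67.5 ± 21.7 for the other silent genes and 74.8 ± 22.1 for pseudogenes. Coding genes at 1 to under 10 CPM had 134 ± 26.5 in control and 252 ± 53.2 in *Dis3* cKO, with no overlap between groups. At 10 to under 50 CPM the levels were 262 ± 26.7 and 538 ± 96.6, and at 50 CPM or more 404 ± 39.2 and 804 ± 141, also without overlap. All regions are 3 kb long, so these levels compare directly between classes.

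**Figure D1:**
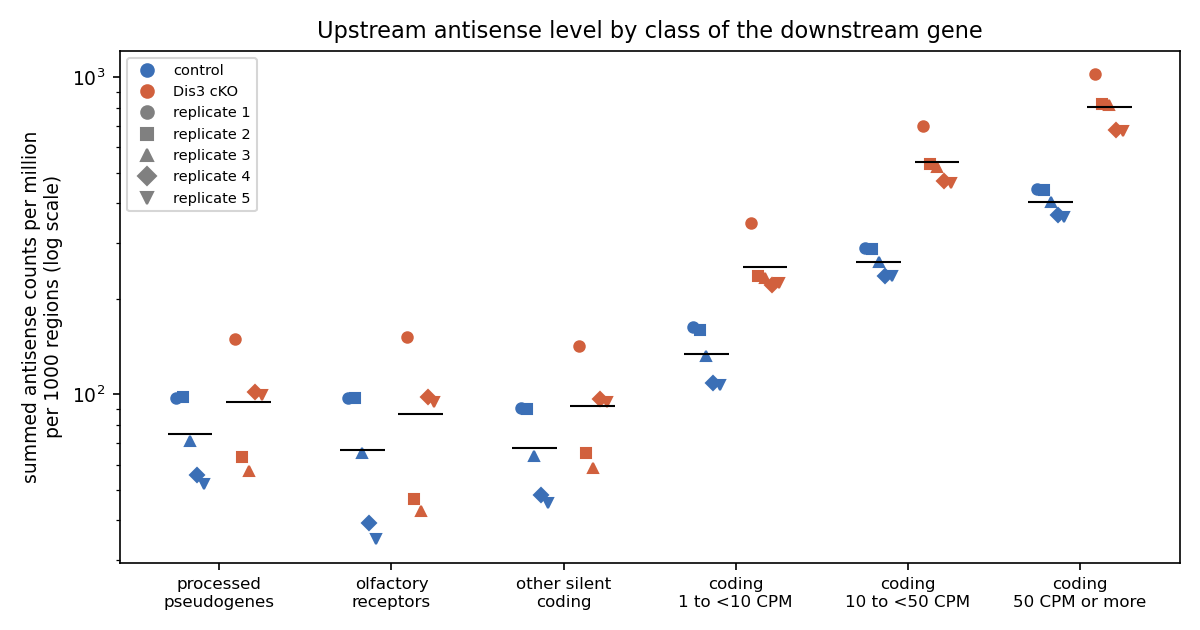
Summed antisense counts per 1000000 TMM-scaled gene counts per 1000 upstream regions (log axis) for 6 classes of downstream gene, with 1 point per library, marker shape by replicate number and bars at group means. Olfactory receptor and other silent coding regions sit at the level of pseudogene regions and their groups overlap, whereas the 3 classes of expressed coding genes lie higher and their groups do not overlap.

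Measured against the pseudogene regions of the same library, the other silent genes did separate by a small margin. That ratio was not planned and was added after the data were seen. Their level per region was 0.927, 0.918, 0.895, 0.870 and 0.874 of the pseudogene level in control replicates 1 to 5 and 0.953, 1.03, 1.02, 0.954 and 0.951 in *Dis3* cKO replicates 1 to 5. Means were 0.897 ± 0.0253 and 0.982 ± 0.0399, and every *Dis3* cKO library lay above every control library. Without the 32 non-olfactory regions that were called higher one by one, the ratios ran from 0.857 to 0.919 and from 0.907 to 0.935 and overlapped. Leaving them out lowers the knockout side by construction, since they were picked by their higher knockout counts. Those 32 regions held 1.46% to 2.12% of the silent-gene counts without olfactory receptors in the controls and 4.19% to 9.90% in *Dis3* cKO. Olfactory receptor regions stood at 0.670 to 1 times the pseudogene level in control and 0.736 to 1.01 times it in *Dis3* cKO, with overlap.

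**Figure D2:**
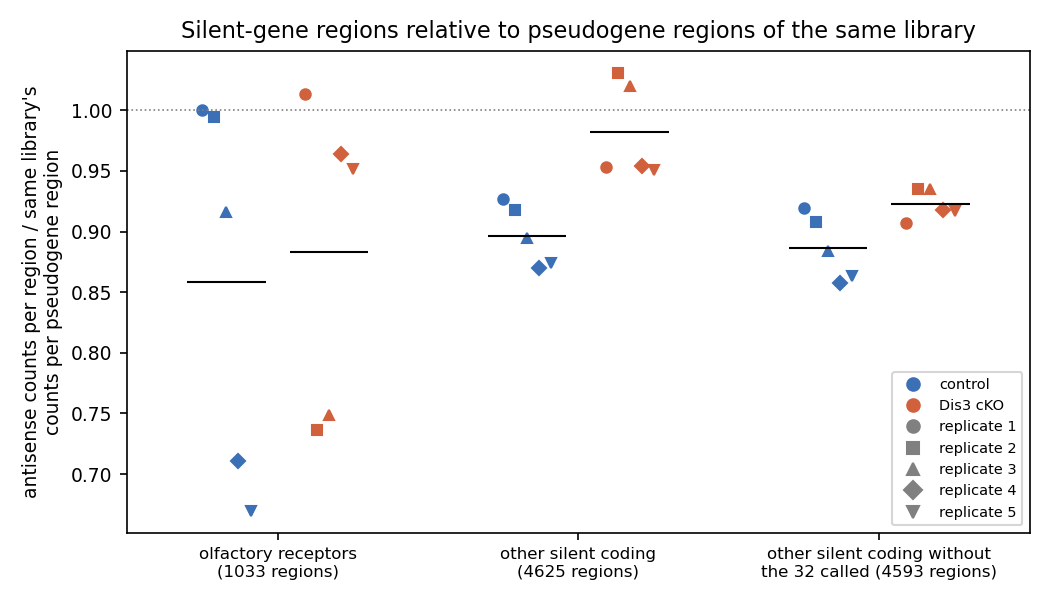
Antisense counts per region divided by the counts per pseudogene region of the same library, for olfactory receptor regions, other silent coding regions and the latter without the 32 called higher, with 1 point per library and bars at group means. Control libraries lie at 0.870 to 0.927 and Dis3 cKO libraries at 0.951 to 1.03 for the other silent coding regions, and the groups overlap once the 32 are left out. The ratio was added after the data were seen.

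Region by region, 33 silent-gene regions were called higher in *Dis3* cKO and 0 lower (edgeR quasi-likelihood test, adjusted p under 0.05). To be tested a region needed 3 counts per library on average, which 1582 of the 5658 regions reached, 353 of them upstream of olfactory receptors. In 414 regions no library had a read. Of the 1582, 2.09% were called higher, where 13.6% of all 12345 regions tested were, and 0.0486% of all were called lower. At an unadjusted p under 0.05, 79 were higher and 6 lower, and DESeq2 called 38 higher and 0 lower. The median log2 fold change of the tested silent-gene regions was 0.38 and 68.8% were above 0, beside 0.64 and 77.8% over all regions and 0.34 and 67.0% over pseudogene regions, of which 17 of 1706 were called higher. Among regions with a mean of at least 10 normalised counts, 23 of 101 silent-gene regions (22.8%) were called higher. That stands beside 43.5% of all 3295 such regions and 6 of 101 such pseudogene regions. A region that passed the count minimum only through its knockout libraries had to differ, so these medians and the counts called describe only regions that passed. The median also followed the library background, at −0.03 within replicates 1 to 3, 1.25 within replicates 4 and 5 and 0.01 with the pseudogene sum of each library as a covariate. Scaling to the region counts in place of the gene counts moved the median of all regions from 0.64 to −0.02 and that of the silent-gene regions to −0.29, with 15 called higher and 8 lower.

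The share called followed the level of the downstream gene within the silent range. Under 0.1 CPM 6 of 886 tested regions were called higher, at 0.1 to under 0.5 CPM 14 of 503, and at 0.5 to under 1 CPM 13 of 193. Beyond the limit the counts were 173 of 1123 at 1 to under 10 CPM, 530 of 2081 at 10 to under 50 CPM and 785 of 2522 at 50 CPM or more. The median of the mean counts also rose, from 3.90 under 0.1 CPM to 12.35 at 50 CPM or more. Among regions with a mean of at least 10 normalised counts, the shares beyond the limit were 44.9%, 47.3% and 48.55%. The part of the read counts in these shares was not tested.

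**Figure D3:**
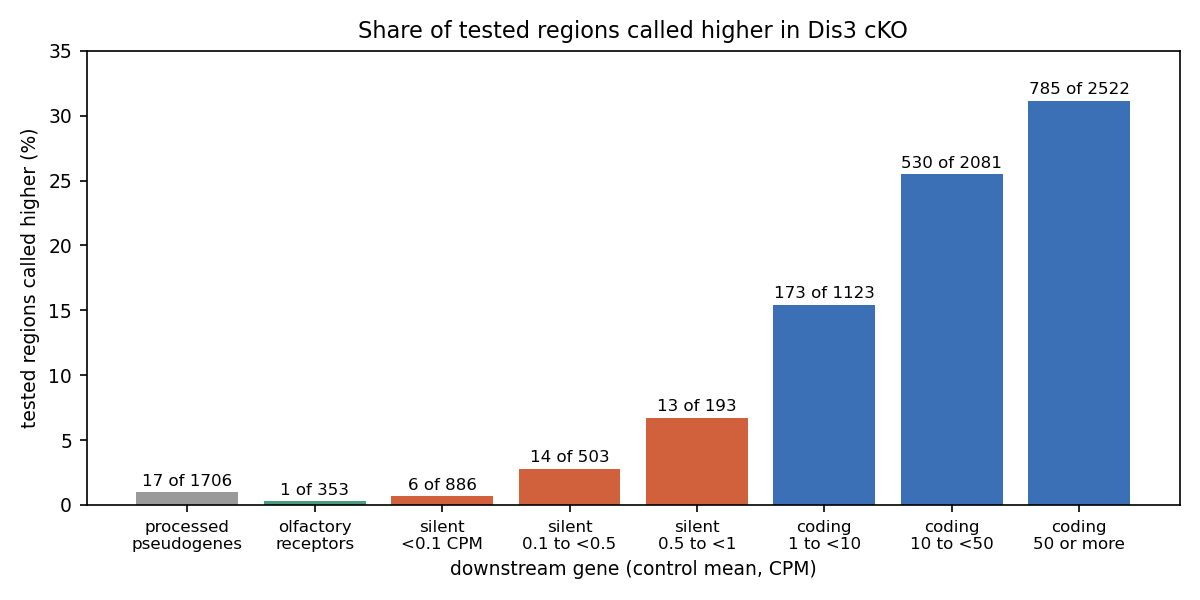
Percentage of tested regions called higher in Dis3 cKO (edgeR adjusted p under 0.05), with the counts above each bar, for pseudogenes, olfactory receptors and coding genes by control CPM. The silent classes include olfactory receptors and rise from 0.677% under 0.1 CPM to 6.74% at 0.5 to under 1 CPM, and the most expressed coding class reaches 31.1%.

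Of the 33, 7 regions had a mean of at least 20 normalised counts and groups that did not overlap. Upstream of *Upk2*, a uroplakin of the bladder lining (region chr9:44454977-44457976, GRCm38), antisense reads numbered 2, 9, 1, 3 and 5 in the controls and 26, 36, 38, 40 and 30 in *Dis3* cKO, even across all knockout libraries. The log2 fold change was 3.30 (SE 0.50, adjusted p = 2.95e-09). Upstream of *Spo11*, whose protein makes the DNA double-strand breaks that start meiotic recombination (chr2:172974700-172977699), reads numbered 4, 4, 10, 4 and 0 against 53, 50, 38, 20 and 15, higher in replicates 1 to 3 than in 4 and 5 of the knockout. Its log2 fold change was 3.24 (SE 0.49, adjusted p = 2.38e-09).

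*Trem6l*, a receptor gene of the myeloid Trem family (chr17:48313141-48316140), had 6, 20, 11, 9 and 7 reads in control and 69, 79, 73, 19 and 30 in *Dis3* cKO. The lowest knockout library, at 21.0 normalised counts, lay just above the highest control, at 18.8, and the log2 fold change was 2.59 (SE 0.38, adjusted p = 7.82e-10). *BC025920* (chr10:81603270-81606269) had 22, 12, 15, 16 and 9 reads against 85, 78, 63, 40 and 52, a log2 fold change of 2.36 (SE 0.35, adjusted p = 9.23e-10). Here *Tle6*, at 25.7 CPM in control, starts 2196 bases beyond the region on the antisense strand. A gene without a symbol, at 0.0498 CPM in control and 0.091 CPM in *Dis3* cKO, ends 98 bases from the region on the gene side. Reads from an unannotated start of *Tle6* or from past the end of that gene would be counted too. Their part was not tested. *Tac4*, which encodes a tachykinin peptide (chr11:95258529-95261528), had 22, 18, 24, 8 and 16 reads against 66, 65, 42, 31 and 47, a log2 fold change of 1.78 (SE 0.36, adjusted p = 1.68e-05).

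*Cldn7* and *Mapkapk5* had the highest control counts of the 7 and the smallest folds of all 33, and both calls ended with scaling to the region counts (log2 fold changes of 0.57 and 0.58, adjusted p = 0.45 and 0.491) or to the pseudogene regions (adjusted p = 0.156 and 0.263). Upstream of *Cldn7*, a tight junction claudin of epithelia (chr11:69961779-69964778), reads numbered 38, 47, 36, 26 and 24 against 78, 77, 69, 64 and 41, with a log2 fold change of 1.21 (SE 0.31, adjusted p = 0.00123). The end of *Elp5*, at 28.9 CPM, faces that region from the gene side at 3443 bases. *Mapkapk5*, a protein kinase gene (chr5:121545906-121548905), had 24, 24, 36, 23 and 22 reads against 58, 50, 28, 77 and 47. These raw reads overlapped, and the lowest knockout library, at 31.3 normalised counts, lay just above the highest control, at 30.2. The log2 fold change was 1.29 (SE 0.33, adjusted p = 0.0016), or 0.99 within replicates 1 to 3 (adjusted p = 0.0658) and 1.72 within replicates 4 and 5 (0.0182). The annotation places 56.5% of the exon length of *Mapkapk5* under other genes of its strand, where reads were not assigned, so its low count need not mean silence. The same held for *Tnfsfm13* (76.7%), *Scamp4* (80.5%) and *Gm49355* (90.7%), 4 of the 33 in all, and for 22 of all 5658.

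Several of the 33 lie upstream of genes known for roles in germ cells, named here after their values were seen. *Meiob*, which encodes a single-strand DNA binding protein of meiotic recombination, had 0, 3, 1, 2 and 2 reads upstream in control and 44, 20, 25, 7 and 14 in *Dis3* cKO, without overlap, and a log2 fold change of 3.97 (SE 0.66, adjusted p = 9.91e-08). *Tmprss12*, a serine protease gene of male germ cells, had 0, 4, 3, 3 and 5 against 45, 30, 28, 26 and 11, a log2 fold change of 3.45 (SE 0.55, adjusted p = 3.15e-08). Both regions thus went from 0 to 5 reads per control library to at least 7 in every knockout library. *Nanos2*, an RNA-binding regulator of male germ stem cells, had 6, 1, 4, 0 and 5 against 20, 27, 28, 7 and 3, a log2 fold change of 2.62 (SE 0.66, adjusted p = 0.00112), and its groups overlapped through replicate 5. The end of *Gm45058*, at 0.0202 CPM in control and 0.1985 CPM in *Dis3* cKO, faces that region from the gene side at 159 bases.
*Stpg2*, a gene of sperm tails, and *Dynlrb2*, a dynein light chain gene, rose by 1.71 (SE 0.58, edgeR adjusted p = 0.0291) and 2.14 (SE 0.76, adjusted p = 0.0377) on the log2 scale, calls that ended when any of 6 and of 7 libraries was left out. A list of 104 spermatocyte and spermatid genes, which includes none of those just named, had 40 tested regions and 0 calls in either direction by edgeR (0 also at an unadjusted p under 0.05), beside 2.09% over all tested silent-gene regions, and its median log2 fold change was 0.53 beside 0.38.

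**Figure D4:**
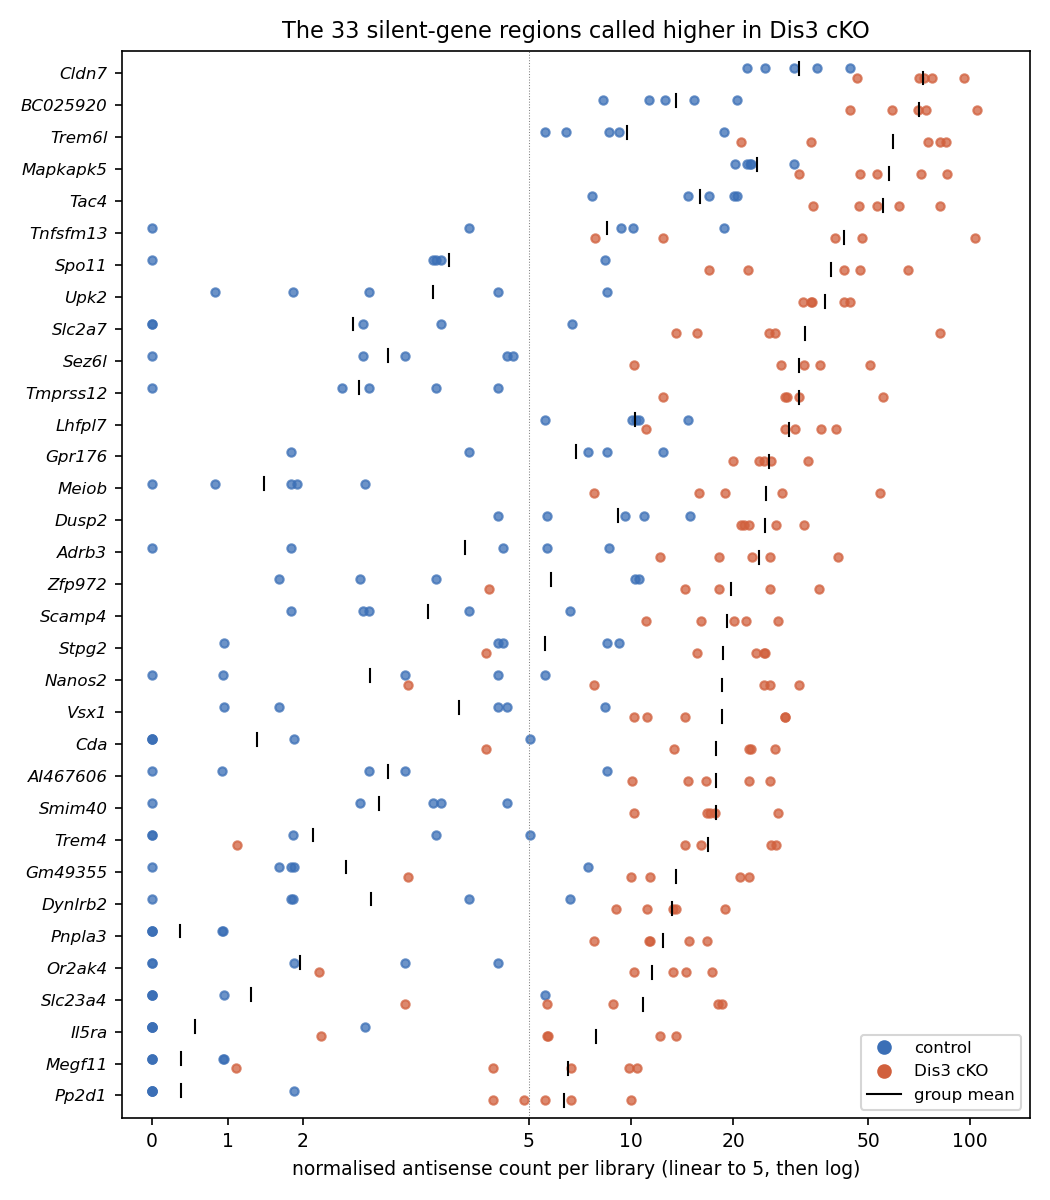
Normalised antisense count in each library (horizontal axis linear up to 5, then logarithmic) for the 33 silent-gene regions called higher, ordered by their Dis3 cKO mean, with points for libraries and ticks for group means. Groups do not overlap in 22 regions, among them Spo11, Meiob, Upk2 and Trem6l, and at least 1 knockout library reaches down to the controls in the others.

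The genes downstream of the 33 regions had low counts in both groups. *Spo11* mRNA was at 0.909 CPM in control and 1.01 CPM in *Dis3* cKO, *Meiob* at 0.214 and 0.183, *Nanos2* at 0.843 and 0.848 and *Upk2* at 0.813 and 0.539. Mean gene levels were higher in *Dis3* cKO for 20 of the 33 and reached 1 CPM in 2, *Spo11* and *Cda* (1.20 CPM). Over all 5658 members 2766 were higher and 73 reached 1 CPM. Since the control level chose the members, these values have no test.

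Among the other called regions, 5 were named after their values were seen. *Slc2a7*, a sugar transporter gene, had 3, 0, 8, 4 and 0 reads upstream in control and 66, 28, 14, 23 and 12 in *Dis3* cKO, for a log2 fold change of 3.52 (SE 0.55, adjusted p = 1.16e-08). *Sez6l*, a brain membrane protein gene, had 3, 5, 4, 5 and 0 against 41, 38, 29, 25 and 9, a log2 fold change of 3.28 (SE 0.54, adjusted p = 8.53e-08). Neither pair of groups overlapped. *Cda*, which encodes cytidine deaminase, rose by 3.53 (SE 0.76, adjusted p = 6.92e-05) with overlap, and *Trem4*, whose region lies 142865 bases from that of *Trem6l*, by 2.89 (SE 0.73, adjusted p = 0.00104), with 21, 17, 24, 13 and 1 reads in *Dis3* cKO. *Pnpla3*, a lipase gene of liver and fat, had the highest fitted log2 fold change, 4.67 (SE 1.06, adjusted p = 0.000222), but only 2 control reads in all against 56, a ratio of 33.6 with an exact 95% counting interval of 8.88 to 284.5. Over the 33, log2 fold changes ran from 1.21 to 4.67 with a median of 2.50, and 22 had no overlap between groups. Every *Dis3* cKO library lay above every control library in 36 of all 1582 tested silent-gene regions, or 2.28%, where 11.1% of all regions tested did. Those 33 folds were measured on the counts that called them and so are not an independent estimate of size.

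**Figure D5:**
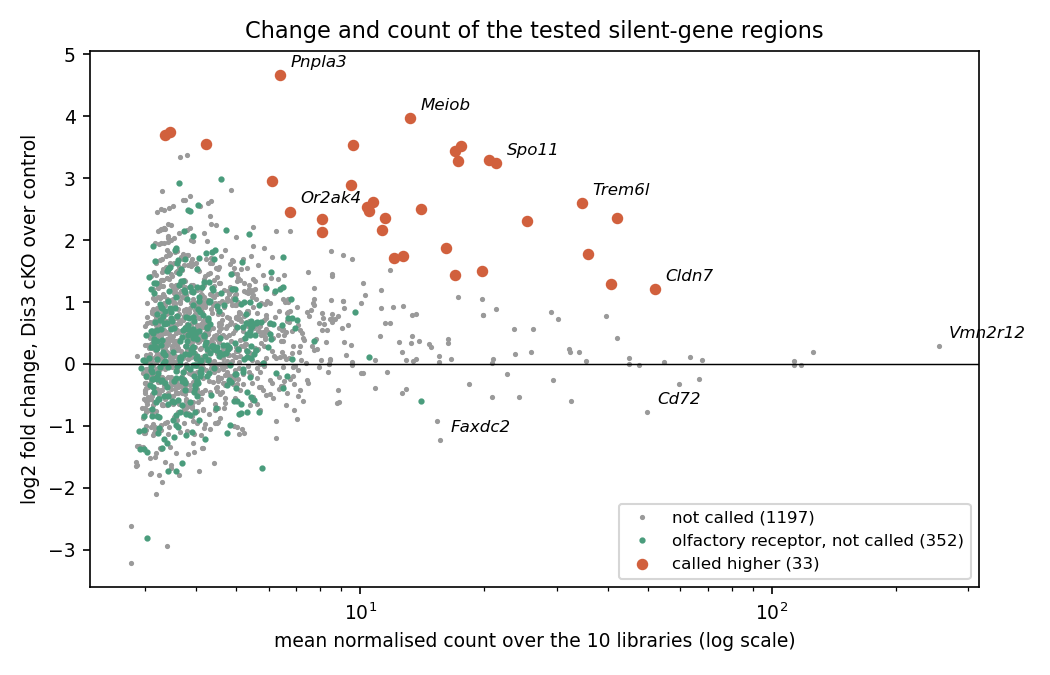
Log2 fold change (Dis3 cKO over control) against the mean normalised count over the 10 libraries (log axis) for the 1582 tested silent-gene regions, with the 33 called higher and the olfactory receptor regions in colour. Called regions lie between 1.21 and 4.67, and the members with the highest counts, such as Vmn2r12, lie near 0.

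Lists of genes with tissue-restricted expression held few tested regions each, and their counts stand beside 2.09% called over all tested silent-gene regions and 13.6% over all regions. No list is read as differing from that 2.09%. Among olfactory receptors 1 of 353 tested regions was called higher and 0 lower, with 9 higher and 1 lower at an unadjusted p under 0.05 and a median log2 fold change of 0.29. The call was *Or2ak4*, with 0, 2, 4, 0 and 5 reads in control and 14, 14, 13, 2 and 9 in *Dis3* cKO, for a log2 fold change of 2.46 (SE 0.86, adjusted p = 0.0357). Its groups overlapped, and leaving out any 1 of 7 libraries ended the call (control replicates 1, 2 and 4 and *Dis3* cKO replicates 1, 2, 3 and 5, adjusted p up to 0.119), as did scaling to the region counts (adjusted p = 0.28). Vomeronasal and taste receptors had 0 calls among 83 tested of 348 regions (3 at an unadjusted p under 0.05), keratins and their associated proteins 0 of 25 (1), cytochrome P450 and serpin genes 0 of 28 (0), and oocyte and early embryo genes 0 of 13 (0).

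Calls were also found in 3 other lists. *Vsx1*, a homeobox gene of retinal interneurons, was the only call among 17 tested regions of developmental transcription factors, with 9, 5, 2, 1 and 5 reads against 23, 30, 10, 13 and 9 and a log2 fold change of 2.16 (SE 0.62, adjusted p = 0.00608, or 0.0639 without *Dis3* cKO replicate 2 and 0.146 with scaling to the region counts). *Adrb3*, the adrenergic receptor of fat cells, was the only one among 29 ion channels and neurotransmitter receptors, with 5, 6, 0, 9 and 2 reads against 33, 24, 23, 11 and 16 and a log2 fold change of 2.50 (SE 0.57, adjusted p = 0.00021). Neither pair of groups overlapped, and *Eif4ebp1*, at 80.04 CPM, starts 6712 bases beyond the *Adrb3* region on the antisense strand. Of 64 immune mediators and defensins 2 were called, *Tnfsfm13* (10, 20, 5, 0 and 11 reads against 39, 109, 7, 36 and 11, log2 fold change 2.31, SE 0.43, adjusted p = 1.98e-06) and *Il5ra*, the interleukin receptor of eosinophils. Groups overlapped at both. At *Tnfsfm13* knockout replicates 3 and 5 lay below control replicate 2, and the adjusted p from DESeq2 was 0.0431. *Il5ra* had 3 control reads, all in replicate 2, against 11, 6, 2, 11 and 5, a ratio of 14.01 with an exact 95% counting interval of 4.42 to 71.2 (adjusted p = 0.0286, up to 0.104 without *Dis3* cKO replicate 1, 0.322 within replicates 1 to 3 and 0.17 with scaling to the region counts). Outside all lists 28 of 930 tested regions were called.

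Annotated neighbours were counted because reads of a nearby gene can enter a region. An annotated gene on the antisense strand lay within 10 kb of 11 of the 33, of 476 of the 1582 tested and of 1493 of all 5658. A gene starting head to head beyond the region lay within 10 kb of 7 of the 33 and 324 of the 1582, and 5 of those 7 neighbours were at 1 CPM or more in control. A gene end facing the region from the gene side lay within 10 kb of 5 of the 33 and 233 of the 1582. Among these was *Tnfsf13os* at 4957 bases from the *Tnfsfm13* region, with 1.13 CPM in control and 2.16 CPM in *Dis3* cKO. Without such neighbours 22 of 1106 tested regions were called, or 1.99%.

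The silent-gene regions with the highest counts were not called. Upstream of *Vmn2r12*, a vomeronasal pheromone receptor gene (chr5:109097951-109100950), normalised counts were 199, 199, 176, 289 and 285 in control and 273, 235, 244, 279 and 367 in *Dis3* cKO. The groups overlapped through control replicates 4 and 5, while control replicates 1 to 3 lay below every knockout library. Within replicates 1 to 3 the log2 fold change was 0.39 (edgeR adjusted p = 0.289). Over all libraries the log2 fold change was 0.28 (SE 0.20, adjusted p = 0.475). *Vmn2r11* in the same gene cluster had 119 ± 13.4 and 118 ± 20.6, a log2 fold change of −0.01 (SE 0.24). *Gm5862*, *Ssxb16* and *Gm21663* had 118 ± 31.99, 114 ± 21.6 and 111 ± 19.3 normalised counts in control and 134 ± 20.5, 113 ± 15.3 and 115 ± 30.7 in *Dis3* cKO, with log2 fold changes between −0.01 and 0.19 and adjusted p between 0.785 and 0.99. These 5 belong to multigene families with similar copies, so the placement of their reads among copies is uncertain, and their own genes were at no more than 0.0648 CPM in control. As the reads were placed, the highest antisense counts among silent-gene regions lay upstream of genes that were almost unread. Those counts did not differ between genotypes beyond the spread between libraries.

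At the limit of the rule, *Pstpip1*, *Cd72* and *Ptprn* lay just under it at 0.995, 0.997 and 0.998 CPM, and *Hmga2*, *Trim5* and *Dipk2b* just over it at 1.003, 1.003 and 1.004 CPM. Upstream counts were at most 7 in any library for the 5 other than *Cd72*. *Cd72*, a coreceptor gene of B cells (chr4:43454629-43457628), had 132, 112, 102, 0 and 1 reads upstream in control and 52, 83, 32, 0 and 4 in *Dis3* cKO. Replicates 1 to 3 of both genotypes were high and replicates 4 and 5 nearly empty, and no other member with a mean of 10 or more normalised counts split so far that each library of a set exceeded 2 times every library of the other by at least 1 count. Its log2 fold change of −0.78 (SE 0.32, adjusted p = 0.102) was not called, though it passed without control replicate 4 (−1.10, adjusted p = 0.0282), control replicate 5 (−1.09, 0.0145) or *Dis3* cKO replicate 2 (−1.28, 0.00452). It also passed within replicates 1 to 3 (−0.81, adjusted p = 0.0376) and with scaling to the region counts (−1.27, 0.00379), but not with a term for the set of replicates (−0.61, 0.255).

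The 6 regions lower at an unadjusted p under 0.05 were those of *Cd72*, *Faxdc2*, *Chl1*, *Esp34*, *Or1a1b* and *Vmn2r74*. *Faxdc2*, an enzyme gene related to sterol hydroxylases, came nearest to a call, with 21.99 ± 11.5 normalised counts in control and 9.35 ± 5.85 in *Dis3* cKO and a log2 fold change of −1.23 (SE 0.51, adjusted p = 0.0959). The groups overlapped in *Dis3* cKO replicates 4 and 5, and without replicate 4 of *Dis3* cKO it passed at −1.54 (adjusted p = 0.0413), as it did with scaling to the region counts (−1.94, 0.00159) and with a term for the set of replicates (−1.34, 0.0446).

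Within each set of replicates the 33 regions kept a log2 fold change above 0, in 33 of 33 for replicates 1 to 3 and in 32 of the 32 that could be tested for replicates 4 and 5, from the same libraries that called them. A test of the difference in genotype effect between the sets called 0 of the silent-gene regions (edgeR, adjusted p under 0.05), with 172 at an unadjusted p under 0.05. These counts stand beside 1582 silent-gene regions tested in the main comparison. The 0 calls do not show equal effects in both sets, since their medians lay far apart. Replicates 1 to 3 alone gave a median log2 fold change of −0.03, and replicates 4 and 5 alone gave 1.25. In 4 of the 7 regions with a mean of at least 20 normalised counts and no overlap, those of *Spo11*, *Trem6l*, *BC025920* and *Cldn7*, knockout replicates 4 and 5 both lay below replicates 1 to 3. Leaving out 1 library at a time ended 12 of the 33 calls at least once, among them *Or2ak4*, *Il5ra*, *Vsx1*, *Stpg2* and *Dynlrb2*, and left 21 in place throughout.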

How the data were processed

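The deposited tables hold the authors' raw counts per gene and per upstream region, as whole numbers without normalization. Per the processing notes and file headers, cutadapt trimmed the reads, HISAT2 placed them on GRCm38.p5 and featureCounts 1.6.4 counted them, on the gene's strand for GENCODE M18 genes and on the other strand for regions. The library kit primes with random and poly(T) primers and keeps strand. Groups came from the genotype labels. All 10 libraries entered edgeR 4.0.16 (R 4.3.3, quasi-likelihood test, two-sided, no covariate) scaled by gene totals with their TMM factors, over every region averaging 3 or more counts a library, with Benjamini-Hochberg adjustment over all of them. An adjusted p under 0.05 was a call. Each SE is the absolute log2 fold change divided by the square root of the F statistic of that test. Normalised counts are counts scaled to the mean library, and counting intervals cover counting error only. Genes lacked a symbol for 1421 regions. DESeq2 1.42.0, other scalings, filters, definitions of silence and left-out libraries were alternatives. The procedure was tested on simulated data.

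Members, lists and rules for named genes were chosen with earlier results of these data known. The rule takes up to 10 largest increases and 5 largest decreases called with a mean of at least 20 normalised counts and no overlap, up to 4 called members of each list, called olfactory receptors, the 5 highest control counts and 3 genes on each side of the limit. Other regions were named after their values were seen. Mice differ between libraries, so p-values cover the spread between mice.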

Additional observations from a re-analysis of the deposited data

Results flagged for a closer look

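Among 86 groups of 5 libraries examined (the 3 sums and 40 named regions in each genotype), a library stood far from the other 4 in 7. For normally distributed values chance alone gives about 1 in 20. Several of these groups hold few reads, so that rate cannot be compared with the 7. For the region of *Trem6l*, control replicate 2 had 18.8 normalised counts where the other controls had 5.59 to 9.24. At *Mapkapk5*, control replicate 3 had 30.2 where the others had 20.2 to 22.6. *Slc2a7* had 81.5 in *Dis3* cKO replicate 1 and 13.6 to 26.6 in the other knockout libraries. *Slc23a4* had 5.59 in control replicate 1 and at most 0.959 in the other controls, and *Gm49355* had 7.46 in that library and at most 1.89 elsewhere in control. The 3 control reads of *Il5ra* (2.83 normalised) and the 2 of *Pp2d1* (1.89 normalised) were all in control replicate 2. A library that holds all reads of its group is flagged whatever its count.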

How the results depend on the processing

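Counts of regions called higher ranged from 24 to 36 when 1 library was left out, and regions called lower from 0 to 2, against 33 and 0 with all libraries. Scaling to the region counts gave 15 higher and 8 lower and a median log2 fold change of −0.29, against 0.38. Replicates 4 and 5 alone gave 7 higher, a median of 1.25, and folds of 2.05 and 2.60 for the summed silent-gene and olfactory receptor counts, against 1.36 and 1.30, and replicates 1 to 3 alone gave 3 lower. Limits of 0.5 and 0.1 CPM in place of 1 CPM left 20 and 6 regions called higher among 5137 and 3558 members. The share called fell too, to 0.677% of 886 tested regions under 0.1 CPM, against 2.09% of 1582 under 1 CPM. A minimum mean of 10 counts and a term for the set of replicates each gave 1 lower, *Faxdc2*, and scaling to pseudogene regions, added after the data were seen, gave 2 lower. The cause of these shifts was not tested. Leave-one-out folds ran from 1.17 to 1.48 for the silent-gene sum and from 1.06 to 1.47 for the olfactory receptor sum, and medians from 0.14 to 0.54. Relative to the region totals both summed folds turned below 1 (0.81 and 0.779).

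Of the 33 calls, 30 were shared with DESeq2, 23 with scaling to pseudogene regions and 15 with scaling to region counts. Calls also lost when a library was left out were those of *Dusp2*, *Gm49355*, *Lhfpl7*, *Megf11*, *Pp2d1*, *Slc23a4* and *Zfp972*, with adjusted p up to 0.158. With the replicate number as a block 30 regions were called higher, 0 lower and the median was 0.40, with 29 shared calls and those of *Or2ak4*, *Il5ra*, *Megf11* and *Pp2d1* lost (adjusted p = 0.0526, 0.0526, 0.0931 and 0.0646). No label says what the numbers mark. Correlations of same-numbered libraries were 0.0826 to 0.183, those with other numbers averaged −0.0574 to −0.0133, and for 3 of 5 numbers the best match was the same number. That is a hint of pairing from the data, not from the design, so the samples were not treated as paired.

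A median of 0 to 3 reads per region and library left most members untested, so smaller changes were not detectable at this depth.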

Other observations

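The 33 called regions all lay on autosomes, where 277 of the 5658 silent genes are on the X chromosome (18 of them tested) and 138 on the Y chromosome. Only 2 pairs of called regions lay within 300 kb of each other, *Trem6l* and *Trem4* on chromosome 17 with 142865 bases between them and *Tnfsfm13* and *Cldn7* on chromosome 11 with 262680. Reads were found in 2126 to 3874 of the silent-gene regions per control library and in 2654 to 4192 per *Dis3* cKO library. Among exosome and adaptor genes, *Zfc3h1* was called higher and *Dis3*, *Exosc8*, *Rbm7* and *C1d* lower of 28 tested, where 4.42% of all genes tested were called higher and 3.48% lower.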
